A study of Saccharomyces cerevisiae with 24 samples.

Results

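The 50 genes described here encode assembly factors of the large (60S) ribosomal subunit of Saccharomyces cerevisiae, proteins that build the subunit and are not part of the finished ribosome. They were taken from a list of gene names. All 50 were found among the 6033 nuclear open reading frames (ORFs) of the deposited tables, and all 50 were above 0 in each of the 24 libraries. The study sequenced total mRNA and ribosome footprints (FP, the stretches of mRNA that ribosomes protect) from 12 cultures of haploid yeast, 1 library of each kind per culture. Values are RPKM, reads scaled to the length of the coding sequence and to the mapped reads of the library.

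All strains have the S288C background and mutant ura3 and his3 genes, and all but D13 (KLY195) are listed as leu2. Cultures grew in rich medium and received cycloheximide before harvest. The euploid strain (WT, MATa), D13 (MATα) and the MATa aneuploids D1/2/8, D1/2 and D2 are in addition trp1. D1/2/8/11 and D1/8 (MATa) are listed with a TRP-marked cassette that returned CAK1 to the reference sequence. TRP1 was at most 0.259 RPKM in the D1/8 libraries, as described below. D13 (KLY195) (MATα) is listed with a TRP-marked and a LEU-marked cassette that returned CAK1 and SEC24. D1/2/8 and D13 keep an amino acid change in CAK1, and D13 a further change in SEC24. Each strain name lists the chromosomes present in an extra copy, I, II, VIII, XI or XIII. The aneuploids descend from meiosis of odd-ploidy parents, and each karyotype is represented by 1 strain apart from the D13 pair, so that karyotype and strain cannot be told apart. D2 and D1/2 were sequenced in run 1 beside 1 WT culture, and the other 5 strains in run 2 beside another. Replicate cultures, 2 per strain, exist for D1/8, D13 (KLY195) and D1/2/8/11. The other strains had 1 culture per run, and their values carry no replicate error.

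Assembly of the 60S subunit begins in the nucleolus on the precursor of the large ribosomal RNAs. DEAD-box helicases, RNA-binding scaffold proteins and methyltransferases act first, a group of factors then directs removal of the internal spacers, GTPases and the giant ATPase Mdn1 remodel the particle in the nucleoplasm, and export and cytoplasmic factors finish it. In yeast most of these genes are transcribed together with other ribosome biogenesis genes, and a pair of promoter elements, PAC and RRPE, is known for this group. In bulk cultures a change in RNA per cell and a change in the share of cells of one state cannot be told apart.

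The promoters of the members are shown first because the elements mark what the genes share beyond the list. In windows from 250 bases before to 50 bases after the coding start (assembly R64), PAC, searched as GATGAG on either strand, was found in 48 of the 50 members, or 96% of them, and in 19.9% of the 5619 promoters examined. RRPE, searched as AAAAATTT on either strand, was found in 40 members and in 14.6% of all promoters. Both were found in 38 members (76%) and in 5.82% of all promoters, and each member had at least 1 of them. The windows that follow are those of the members on which the results turn, namely HAS1 and CGR1 (the highest and the lowest mean change in ribosome density of the 4 strains with an extra chromosome II), DBP10 (the highest mean FP ratio among members on chromosomes never in extra copy) and MDN1 (the lowest mRNA ratio in run 2). Capitals mark matches to either element, and the sequences run 5′ to 3′ on the coding strand.
HAS1, chrXIII:851542-851841, minus strand: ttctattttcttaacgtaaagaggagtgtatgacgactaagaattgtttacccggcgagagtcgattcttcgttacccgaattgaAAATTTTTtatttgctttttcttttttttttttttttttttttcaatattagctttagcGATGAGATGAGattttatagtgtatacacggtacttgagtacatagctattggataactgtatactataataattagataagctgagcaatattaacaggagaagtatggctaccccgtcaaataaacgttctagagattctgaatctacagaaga
DBP10, chrIV:393967-394266, plus strand: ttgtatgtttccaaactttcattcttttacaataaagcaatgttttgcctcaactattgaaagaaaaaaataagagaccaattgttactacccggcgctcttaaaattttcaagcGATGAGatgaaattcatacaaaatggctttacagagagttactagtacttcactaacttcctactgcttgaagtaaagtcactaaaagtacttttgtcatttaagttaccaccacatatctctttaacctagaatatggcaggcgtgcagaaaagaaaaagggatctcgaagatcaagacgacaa
CGR1, chrVII:439813-440112, plus strand: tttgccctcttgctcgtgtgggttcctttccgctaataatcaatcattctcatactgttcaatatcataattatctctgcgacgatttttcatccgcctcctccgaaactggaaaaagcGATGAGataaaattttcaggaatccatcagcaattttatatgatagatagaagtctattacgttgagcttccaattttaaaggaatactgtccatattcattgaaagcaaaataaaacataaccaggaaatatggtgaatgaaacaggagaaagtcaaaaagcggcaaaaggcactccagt
MDN1, chrXII:363689-363988, minus strand: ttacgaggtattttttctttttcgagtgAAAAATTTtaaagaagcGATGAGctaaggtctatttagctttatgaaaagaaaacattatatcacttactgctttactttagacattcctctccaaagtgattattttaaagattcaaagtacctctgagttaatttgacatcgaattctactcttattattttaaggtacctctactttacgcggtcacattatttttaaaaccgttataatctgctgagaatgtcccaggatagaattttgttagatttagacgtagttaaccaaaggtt
The HAS1 window held 2 overlapping PAC matches and 1 RRPE match, and the MDN1 window held 1 of each. The windows of DBP10 and CGR1 held 1 PAC match and no run of the RRPE letters. A match is a description of the letters in the window. Among the 42 members on chromosomes that no strain has in extra copy, the 31 with both elements had a median log2 FP ratio to WT of 0.48 in D1/2/8/11 and -0.16 in D1/8, and the other 11 had 0.49 and -0.07.

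In WT the members lay high in the range of expressed genes. Their median FP level was 120 RPKM in run 1 and 118 RPKM in run 2, against 29.9 and 34.4 RPKM over all ORFs above 0. In mRNA all 50 members were above the median ORF in both runs, and in FP 49 were. TIF6 (YPR016C), the factor that keeps the small subunit from joining too early, had the highest FP level, 273 RPKM in run 1 and 353 RPKM in run 2. RLP24 (YLR009W), which holds the place of the ribosomal protein Rpl24, followed with 236 and 289.5 RPKM. The lowest FP levels were those of URB2 (YJR041C) with 28.1 and 27.6 RPKM and URB1 (YKL014C) with 31.4 and 40.2 RPKM, both of the earliest nucleolar particle. Between the WT cultures of the runs, the log2 FP ratio of single members, run 2 over run 1 and shifted so that the median over all ORFs above 0 was 0, ran from -1.28 (RRP15) to 0.42 (NOP12), with a median of -0.20.

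The comparison of interest is each aneuploid strain with the WT culture of its run. Log2 ratios to that culture were shifted so that the median over all ORFs on chromosomes present once was 0, and members on an extra chromosome were set aside. The log2 mRNA ratio of the median member was 0.35 for D2 and 0.34 for D1/2, then 0.38 for D1/2/8 and 0.43 for D1/2/8/11. The D13 strain had 0.39, and the reverted strain D13 (KLY195) had 0.33. In D1/8 the median was -0.09, and 13 of the 50 members were above WT, beside 50.1% of all ORFs, a share that the shift sets. In FP the medians were 0.51, 0.42, 0.44 and 0.49 in the 4 strains with an extra chromosome II, in the same order. They were lower in the others, with -0.10 for D1/8, 0.19 for D13 and 0.29 for the reverted strain. The 2 cultures of D1/2/8/11 gave FP medians of 0.46 and 0.49, those of D1/8 gave -0.16 and -0.06, and those of D13 (KLY195) gave 0.35 and 0.19. The medians of all 7 strains rest on 1 WT culture per run, and they carry no test. Set against the mean of both WT cultures, the FP median was 0.316 in D1/2/8/11 and 0.321 in D1/2/8, then -0.26 in D1/8, 0.08 in D13 and 0.13 in the reverted strain. With the shift set on ORFs without a hydrophobic segment, the FP median was 0.07 for D13 and 0.16 for the reverted strain, with 0.314 for D1/2/8 and 0.329 for D1/2/8/11, and the mRNA median was 0.25 for D1/2/8 and 0.21 for D13 (KLY195).

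**Figure D1:**
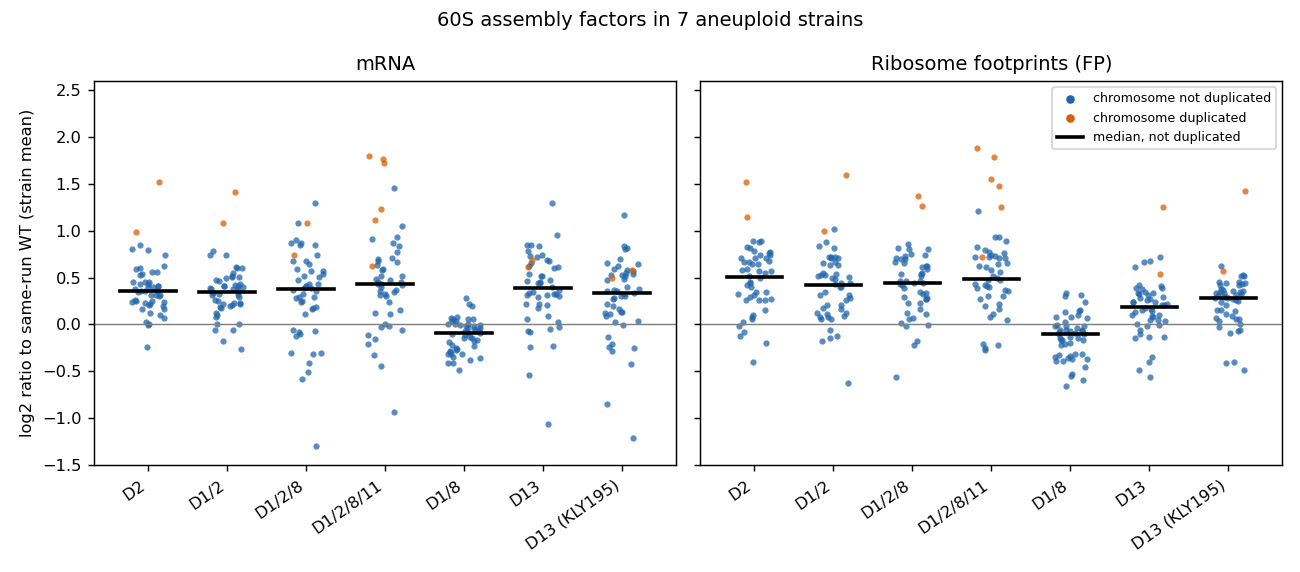
Log2 ratio of each member to the WT culture of the same run (vertical axis, strain mean) in mRNA (left) and FP (right), by strain; blue points are members on chromosomes present once, orange points members on a chromosome in extra copy, and black bars the medians of the blue points. The black bars lie between 0.33 and 0.43 in mRNA in 6 strains, and at -0.09 in mRNA and -0.10 in FP in D1/8.

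The members were next read against all ORFs. An FP ratio of at least 0.38 (30% above WT) was found for 29 of 48 members in D2 (18.8% of all ORFs), 26 of 48 in D1/2 (20.7%), 28 of 48 in D1/2/8 (21.4%) and 29 of 44 in D1/2/8/11 (25.3%). In D13 and D13 (KLY195) 8 and 12 of 48 members passed it, beside 22.8% and 20.3% of all ORFs, so the members' share was near the background there. In D1/8 none of the 50 members reached it (11.9% of all ORFs did), and 7 members were at -0.38 or lower, beside 13.7% of all ORFs. In mRNA the limit was passed by 20 members of D2 (18.2% of all ORFs), 21 of D1/2 (18.3%), 24 of D1/2/8 (20.9%) and 24 of D1/2/8/11 (21.1%). It was passed by 24 members in D13 and 19 in D13 (KLY195), with 22.4% and 21.5% of all ORFs, and by none in D1/8, with 10.6%.

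The 4 strains with an extra chromosome II were then set against the other 3 strains. In FP all 4 lay above all 3 for 18 of the 42 members on chromosomes never in extra copy (42.9%), while 9.23% of all ORFs showed this order. The order was chosen with earlier results in view and carries no test. The 18 were the helicases DBP6, DBP10 and DRS1, the methyltransferase SPB1, the RNA-binding proteins NOP4, NOP12, PUF6 and LOC1, the scaffold proteins MAK21 and NOC2, the nucleolar factors BRX1, RLP7 and RRP1, the GTPases NOG1 and LSG1, the Rix1-complex member IPI3, the placeholder RLP24 and the export factor ARX1. In mRNA the same order held for 7 members, or 16.7% (5.23% of all ORFs), and in ribosome density, the FP change minus the mRNA change, for 4 members (BRX1, NOP12, RLP24 and RRP1), or 9.52% (3.65%). D2 and D1/2 come from run 1, and run 1 held no aneuploid without an extra chromosome II, so between runs the run and the karyotype cannot be told apart. Within run 2 alone, D1/2/8/11 and D1/2/8 lay above the other 3 strains for 27 of 42 members in FP (20.3% of all ORFs), 13 in mRNA (15.3%) and 14 in ribosome density (10.7%).

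An FP ratio of at least 0.38 in each of the 4 strains was found for 11 members, ARX1, BRX1, DBP10, DRS1, IPI3, LOC1, NIP7, NOP12, NOP4, RLP24 and SPB1, which is 26.2% of the 42, and for 3.58% of all ORFs. In mRNA 7 members met this limit, NOP2, NOP4, NOP7, RLP24, RRP15, RRS1 and SPB1, beside 2.36% of all ORFs. NOP4, RLP24 and SPB1 met it in both. The size of a member's ratio differed between the runs. Across the 42 members the mean FP ratio of D2 and D1/2 and that of D1/2/8/11 and D1/2/8 had a Pearson correlation of 0.09 (Spearman 0.02), and in mRNA 0.11 (Spearman 0.02), although the medians of the pairs were alike, 0.43 in both runs in FP. The points share 1 WT culture within each run and no library between runs.

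DBP10 (YDL031W), a DEAD-box helicase of late nucleolar particles, had the highest mean FP ratio over the 4 strains among the 42 members, 0.75. Its FP level was 58.0 RPKM in WT, 103 RPKM in D2 and 100.4 RPKM in D1/2 in run 1. In run 2 it was 53.7 RPKM in WT, 94.5 RPKM in D1/2/8, 88.0 and 89.1 RPKM in D1/2/8/11, 56.9 and 62.9 RPKM in D1/8, 59.7 RPKM in D13 and 66.7 and 63.2 RPKM in D13 (KLY195). The libraries with an extra chromosome II lay above all the others without overlap. ARX1 (YDR101C), which carries the pre-60S particle through the nuclear pore, had FP levels of 81.6 RPKM in WT, 161 RPKM in D2 and 141 RPKM in D1/2. In run 2 its FP level was 96.8 RPKM in WT, 148 RPKM in D1/2/8, 157 and 160 RPKM in D1/2/8/11, and 96.9 to 112 RPKM in the 5 libraries of the other strains. ARX1 mRNA differed less, 153 RPKM in WT against 178 and 193 RPKM in D2 and D1/2, and 174 RPKM in WT of run 2 against 166 RPKM in D1/2/8 and 183 and 197 RPKM in D1/2/8/11. Of the 42 members it was the only one (2.38%) with a ribosome density ratio of at least 0.38 in all 4 strains. That share was near the 2.08% of all ORFs. The ARX1 density ratios were 0.72, 0.45, 0.79 and 0.68. In D1/8 the ratio was 0.50, above that of D1/2, so the strains overlapped in ribosome density. SPB1, IPI3, NOP12, BRX1, ALB1 and NOP4 followed in mean FP ratio, from 0.71 down to 0.63.

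Among the 42 members the lowest mean FP ratios over the 4 strains were close to 0, those of SPB4 (YFL002C, -0.06), MDN1 (-0.04), RSA3 (YLR221C, -0.04) and CGR1 (-0.02). SPB4, another DEAD-box helicase, was at 36.6 RPKM in WT and at 36.7 and 36.8 RPKM in D2 and D1/2 in FP. In run 2 it was at 48.1 RPKM in WT, 42.5 RPKM in D1/2/8 and 52.1 and 49.2 RPKM in D1/2/8/11. DBP10 was above WT in each of these libraries, while their SPB4 ratios lay between -0.18 and 0.12. DBP10 and SPB4 were named as the highest and the lowest of the 42 members by this mean, so their difference follows from that choice. The helicase genes DRS1 (0.579), DBP6 (0.531), DBP3 (0.425) and DBP9 (0.366) had means between them.

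There were 8 members on a chromosome that at least 1 strain has in extra copy. On chromosome II, MAK5 (YBR142W), a DEAD-box helicase, was in FP at 44.4 RPKM in WT, 135 RPKM in D2 and 141 RPKM in D1/2 of run 1. In run 2 it was at 49.97 RPKM in WT, 120.5 RPKM in D1/2/8 and 109.8 and 129 RPKM in D1/2/8/11, without overlap with the 52.5 to 57.6 RPKM of the strains with 1 chromosome II. Its log2 FP ratio of 1.518 in D2 and 1.601 in D1/2 exceeded that of 93.8% and 94.3% of the measured ORFs of chromosome II, whose medians were 0.87 and 0.89. The ratio was 1.27 in D1/2/8 and 1.25 in D1/2/8/11. REI1 (YBR267W), which strips Arx1 from the particle in the cytoplasm, had FP ratios of 1.15, 1.00, 1.38 and 1.89 in the 4 strains in the same order, and mRNA ratios of 1.52, 1.42, 0.74 and 1.12. The FP level of REI1 was 70.4 RPKM in WT of run 2, 255 and 267 RPKM in D1/2/8/11 and 62.4 and 63.5 RPKM in D1/8.

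On chromosome XI, 3 members stood above their chromosome in D1/2/8/11, the only strain with an extra copy. MRT4 (YKL009W), the placeholder for the stalk protein P0, was at 276 RPKM in WT of run 2, at 842 and 778 RPKM in D1/2/8/11 and at 208 and 218 RPKM in D1/8 in FP. The FP ratio was 1.55 for MRT4, 1.79 for EBP2 (YKL172W) and 1.48 for RRP14 (YKL082C), with 1.01 for the median ORF of chromosome XI, and in mRNA the ratios were 1.727, 1.766 and 1.804 against 1.038. In D1/2/8, which has 1 chromosome XI, the same 3 members were at 0.76, 0.81 and 0.81 in FP. URB1 lay below the chromosome, at 0.72 in FP and 0.62 in mRNA in D1/2/8/11. On chromosome XIII, ERB1 (YMR049C), a scaffold of the spacer-removal group, was at 0.54 in D13 and 0.57 in D13 (KLY195) in FP, where the median ORF of the chromosome was at 0.90 and 0.94. HAS1 on the same chromosome was at 1.26 and 1.42.

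**Figure D2:**
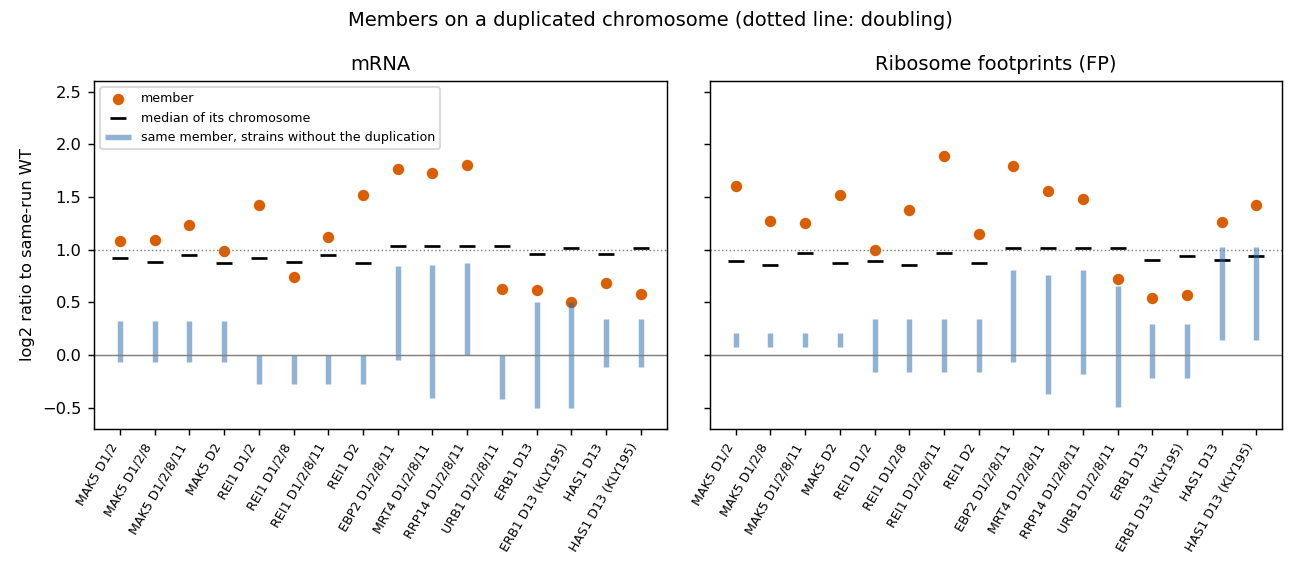
Log2 ratio to same-run WT (vertical axis) of the 8 members in the strains that have their chromosome in extra copy, in mRNA (left) and FP (right); orange points are members, black dashes the median of all ORFs of that chromosome, and blue bars the range of the same member in strains without the extra copy. MRT4, EBP2 and RRP14 in D1/2/8/11 lie above the chromosome medians of 1.04 and 1.01, and ERB1 below the medians in both D13 strains.

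The gene-by-gene test was made within run 2, where 3 strains have 2 cultures, with limma on log2(RPKM + 0.5) over the 9 libraries of a fraction, and Benjamini-Hochberg adjusted p below 0.05 over all ORFs tested was the limit. WT is a single culture in this fit and was assumed to vary like the others. Each library was centred on its own median, which left the median ORF at 0.22 to 0.25 in FP and 0.11 to 0.18 in ribosome density in the contrasts of D1/2/8/11 and D13 (KLY195). The counts without centring, on the values as deposited, where that median lay within 0.04 of 0 in FP and within 0.10 of it in ribosome density, are therefore given beside them. The replicated strains D1/2/8/11 and D1/8 share extra chromosomes I and VIII and differ in II and XI, and ORFs on these 4 chromosomes were left out of the counts of that comparison, which keep 44 members (none of the 50 lies on I or VIII). Their libraries also differ in TRP1, the marker of the CAK1 cassette listed for both strains, as described below.

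Between D1/2/8/11 and D1/8, 40 of 44 members were higher in D1/2/8/11 in FP and none was lower, while 34.5% of all ORFs on chromosomes in extra copy in neither strain were higher and 19.8% lower. The median member differed by 0.84 on the log2 scale and the median ORF by 0.25. Without centring 36 members were higher and none lower, beside 18.1% and 23.2% of all ORFs, and the median member differed by 0.62. In mRNA 37 members were higher (84.1%) and 4 lower (9.09%), with 35.5% of all ORFs higher and 37.6% lower, and the median member differed by 0.52. The 4 lower members were MDN1, ERB1, DBP6 and HAS1. The counts covered all stages, with 11 of 12 early nucleolar factors, 12 of 13 of the group that removes the spacers, 11 of 11 of the factors on the way to the nucleoplasm, 2 of 4 nucleoplasmic remodelling factors and 4 of 4 export and cytoplasmic factors higher in FP. The 2 nucleoplasmic factors called were IPI3 and RSA4.

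By gene, the largest FP differences were those of REI1 (2.26 ± 0.10, SE), MRT4 (2.14 ± 0.12), EBP2 (2.08 ± 0.13) and RRP14 (1.71 ± 0.18), whose chromosomes differ in copy number between the strains. Without centring they were 2.04, 1.92, 1.86 and 1.49 in the same order. ALB1 (YJL122W), the partner of Arx1 in export, followed on chromosome X, with FP levels of 355 and 321 RPKM in D1/2/8/11, 125 and 157 RPKM in D1/8 and 146 RPKM in WT. The difference for ALB1 was 1.48 ± 0.16 (limma adjusted p = 0.000687, and 0.000217 to 0.0109 over the alternative settings). Without centring the ALB1 difference was 1.26 (limma adjusted p = 0.00117). ALB1 was also at 240.2 RPKM in D13 and at 241 and 208 RPKM in D13 (KLY195), beside 190 RPKM for D1/2, 218 RPKM for D2 and 239 RPKM for D1/2/8. At the other end, MAK21 (YDR060W) differed by 0.39 ± 0.10 in FP (limma adjusted p = 0.0159), but without centring by 0.17 (adjusted p = 0.215, with 0.00411 to 0.595 over the settings). SDA1 (YGR245C, 0.21), URB2 (0.11), MDN1 (0.06) and ERB1 (-0.01) did not pass the test. Without centring they were at -0.01, -0.10, -0.16 and -0.23 in the same order, and none passed.

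**Figure D3:**
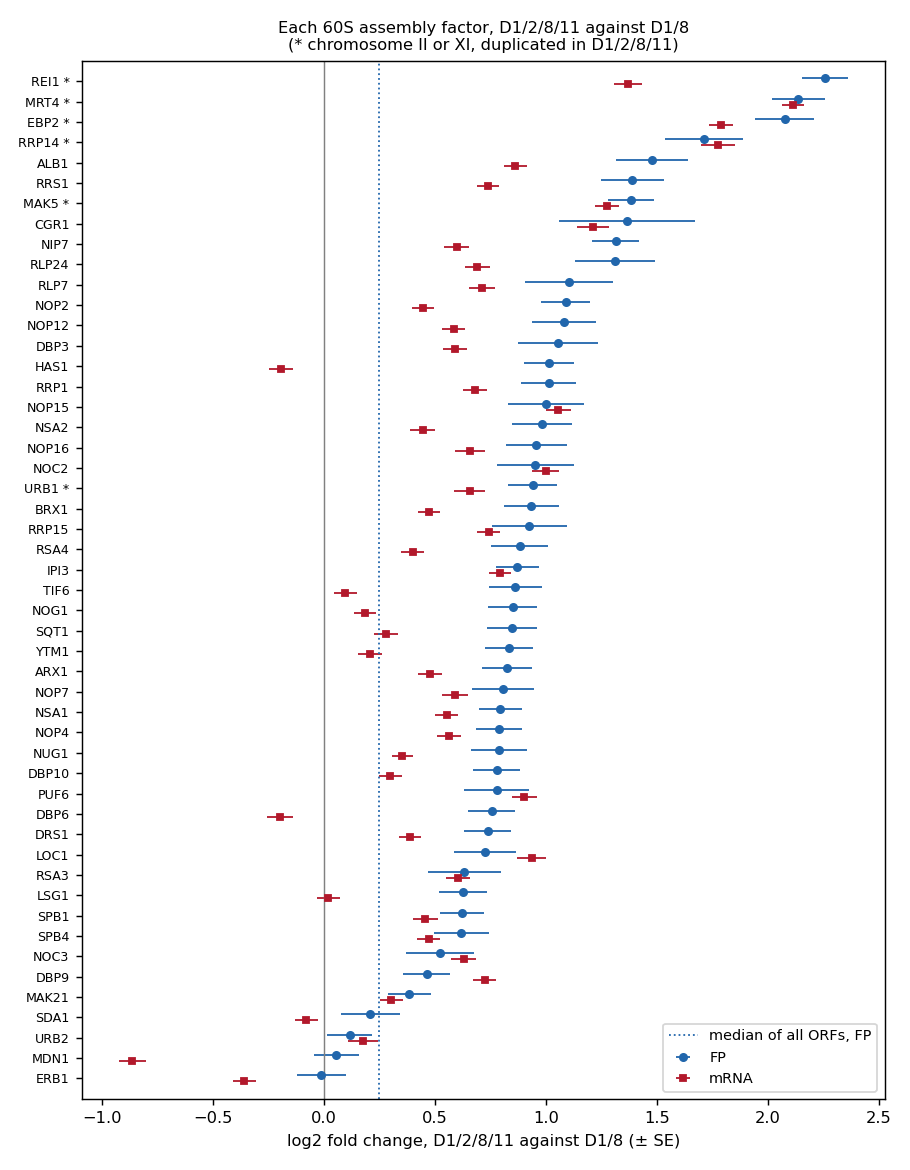
Log2 fold change of each of the 50 members between D1/2/8/11 and D1/8 (horizontal axis) in FP (blue circles) and mRNA (red squares), with bars of 1 standard error from limma over the 9 libraries of run 2; a star marks members on chromosome II or XI, and the dotted line the median of all ORFs in FP at 0.25. FP values run from -0.01 (ERB1) to 2.26 (REI1), and HAS1 and DBP6 have FP values above 0 with mRNA values below 0.

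Against WT, 32 of 44 members were higher in FP in D1/2/8/11 and none lower, with 29.1% of all ORFs higher and 18.2% lower, and without centring 22 were higher and none lower, beside 14.6% and 21.7%. Centred on ORFs without a hydrophobic segment, 18 members were higher and none lower, beside 10.6% and 23.8% of all ORFs. In mRNA 32 members were higher and 4 lower, with 35% and 33.3% of all ORFs. In D13 (KLY195), 32 of 48 members were higher and 7 lower in mRNA, with 35.7% and 33.8% of all ORFs. In FP of this strain 21 members were higher and none lower (19.8% and 15.9% of all ORFs), but without centring 1 was higher and 1 lower, beside 6.36% and 18.1% of all ORFs, so the FP calls of D13 (KLY195) depend on the centring. They also depend on single cultures, with 6 members called without D1/8 replicate 1 (8.23% of all ORFs higher) and again without replicate 2 (8.25%), 14 when D1/2/8/11 replicate 1 or 2 was left out (13.6% each time), and 37 without D13 (KLY195) replicate 2 (30%). D1/8 went the other way in mRNA, with 3 members higher (CGR1, NOP16 and RRP15) and 16 lower, where 24.4% of all ORFs were higher and 17.1% lower. With the WT cultures of both runs in the fit none was higher and 5 were lower in limma, beside 12.3% and 8.79% of all ORFs. The lowest in D1/8 mRNA was RSA4 (YCR072C, -0.45 ± 0.06, SE), a substrate of Mdn1. In FP of D1/8 no member passed the limit in limma, 6 had an unadjusted p below 0.05, and 0.402% and 0.317% of all ORFs were called higher and lower. With D13 (KLY195) replicate 1 or 2 left out, 2 members were called lower (5.53% or 5.65% of all ORFs).

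TRP1, which the strain descriptions place in D1/8, D1/2/8/11 and D13 (KLY195), bears on how far the labels hold. The FP library labelled D13 (KLY195) replicate 1 had 0.759 RPKM of TRP1 where replicate 2 had 105 RPKM and the mRNA of both cultures 303 and 301 RPKM, and the libraries labelled D1/8 had at most 0.259 RPKM. The mRNA libraries of D1/2/8/11, the strain compared with D1/8 above, had 374.5 and 358.2 RPKM. Those strains thus differ in TRP1 mRNA as well as in chromosomes II and XI. Whether D1/8 carries the returned CAK1 was not tested. D13, listed as trp1, had 2.95 RPKM in FP. How these levels arose was not tested. The chromosomes named in the labels had median FP ratios of 1.105 (I) and 0.980 (VIII) in D1/8 and of 0.942 (XIII) in D13 (KLY195). Without that FP library the median FP ratio of the members in D13 (KLY195) was 0.19 rather than 0.29, and 26 of 48 members were called higher in FP, beside 33.2% of all ORFs. The order of the 4 chromosome II strains above the other 3 then held for 20 of 42 members in FP (8.12% of all ORFs) and for 7 in ribosome density (3.65%). In the fit of D1/2/8/11 against D1/8, 40 members were again higher in FP without it.

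Ribosome density, the FP change less the mRNA change, was higher in D1/2/8/11 than in D1/8 for 16 of 44 members (36.4%) and lower for none, while 23.1% of all ORFs were higher and 12.9% lower. The 16 were HAS1, DBP6, MDN1, TIF6, NIP7, NOG1, RRS1, NOP2, YTM1, RLP24, ALB1, LSG1, SQT1, NSA2, RSA4 and DBP10. Of these, 7 belong to the factors on the way to the nucleoplasm and 1, DBP6, to the early nucleolar group. Without centring 5 members were higher and 1 lower, beside 10.6% and 19.1% of all ORFs. With 1 culture of D1/8 or D1/2/8/11 left out, that strain had a single culture. Most or all calls were then lost, among the members and among all ORFs alike. The median member differed by 0.29 to 0.45 in these fits and the median ORF by 0.17 to 0.20. Against WT, 12 of 44 members were higher in D1/2/8/11 (13.1% of all ORFs higher, 11.2% lower) and 7 without centring (5.36% higher, 15.4% lower). When any 1 of the 4 cultures of D1/2/8/11 and D1/8 was left out, the calls of members were lost. Most or all calls among all ORFs were lost as well. The median member differed from WT by 0.21 to 0.38 in these fits. In D13 (KLY195) 6 of 48 members were higher, a share of 12.5% beside 12.9% of all ORFs (9.31% lower). With 1 culture of D1/2/8/11 or D1/8 left out, fewer or none of the members were called in D13 (KLY195), and fewer or none of all ORFs. Its median member differed from WT by 0.16 each time. In D1/8 none of the 50 members was called in limma, 2 had an unadjusted p below 0.05, and 0% of all ORFs were called in either direction.

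HAS1 (YMR290C), a DEAD-box helicase that acts on both subunits, had the highest mean ribosome density change over the 4 chromosome II strains, 0.90. In run 1 its FP level was 122 RPKM in WT, 242 RPKM in D2 and 260.5 RPKM in D1/2, and its mRNA level was 178, 215 and 229.8 RPKM. In run 2 its FP level was 147 RPKM in WT, 267.5 RPKM in D1/2/8, 282 and 281 RPKM in D1/2/8/11, 154 and 170.4 RPKM in D1/8, 352 RPKM in D13, and 384 and 405 RPKM in D13 (KLY195). The FP levels of WT and D1/8 thus lay below those of all other strains without overlap. In mRNA HAS1 was at 138 RPKM in WT, 130.3 RPKM in D1/2/8 and 124 and 129.5 RPKM in D1/2/8/11, all below the 139 and 147 RPKM of D1/8. Between D1/2/8/11 and D1/8 its FP rose by 1.01 ± 0.11 (limma adjusted p = 0.000715) and its mRNA fell by 0.19 ± 0.05 (adjusted p = 0.00763, with 0.000501 to 0.0599 over the settings). Without centring the FP of HAS1 rose by 0.80 (limma adjusted p = 0.00195). Ribosome density differed by 1.21 ± 0.14 (adjusted p = 0.00486), or by 0.97 without centring (adjusted p = 0.00543). It was not past the limit without D1/8 replicate 1 (adjusted p = 0.0677) or replicate 2 (0.0653), the sizes being 1.18 and 1.24.

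DBP6 (YNR038W), a helicase of the earliest particle together with URB1, URB2 and RSA3, had the next highest ribosome density change, 0.68 on average. Its mRNA in run 2 was at 59.9 RPKM in WT, 39.8 RPKM in D1/2/8, 44.2 and 43.7 RPKM in D1/2/8/11 and 47.9 and 51.6 RPKM in D1/8, while its FP was at 39.7, 47.9, 52.2 and 52.2, and 36.3 and 35.2 RPKM. DBP6 mRNA differed by -0.20 ± 0.06 between D1/2/8/11 and D1/8 (limma adjusted p = 0.0112, with 0.000825 to 0.0901 over the settings). The density difference between D1/2/8/11 and D1/8 was 0.95 ± 0.13 (limma adjusted p = 0.00603), and it was not past the limit without D1/8 replicate 1 (adjusted p = 0.0677) or 2 (0.075). Without centring the density difference was 0.715 (limma adjusted p = 0.0113). DBP6 density in D13 (KLY195) was also above WT by 0.83.

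CGR1 (YGL029W), the shortest member with 363 coding bases and needed for processing of the large-subunit precursor RNA, stood at the other end. Its ribosome density was below WT in all 7 strains, with -0.94 (D2), -0.78 (D1/2), -0.76 (D1/2/8), -0.88 (D1/2/8/11), -0.86 (D1/8), -1.17 (D13) and -0.68 (D13 (KLY195)). The 3 strains with replicates did not pass the limit against WT (limma adjusted p = 0.184 for D1/2/8/11, 0.667 for D1/8 and 0.320 for D13 (KLY195)). In run 1 its FP level was 244 RPKM in WT, 196 RPKM in D2 and 166 RPKM in D1/2, while its mRNA level was 190 RPKM in WT, 284 RPKM in D2 and 222 RPKM in D1/2. In run 2 its mRNA level was 86.2 RPKM in WT, 211 RPKM in D1/2/8, 237 and 236 RPKM in D1/2/8/11, 108 and 93.7 RPKM in D1/8, 212 RPKM in D13, and 202 and 187 RPKM in D13 (KLY195). The WT cultures themselves were thus far apart in mRNA, at 190 and 86.2 RPKM. Its FP level in run 2 was 190 RPKM in WT, 256 RPKM in D1/2/8, 288 and 247 RPKM in D1/2/8/11 and 105 and 137 RPKM in D1/8. The 2 cultures of D13 (KLY195) were far apart in FP, 346 and 186 RPKM. Between D1/2/8/11 and D1/8 the FP of CGR1 rose by 1.37 ± 0.31 (limma adjusted p = 0.0102), a call lost after a correction for coding length (adjusted p = 0.12), without D1/2/8/11 replicate 1 (0.0755) and without D1/8 replicate 1 (0.0644). Without centring the rise in CGR1 FP was 1.15 (limma adjusted p = 0.0221). RSA3 and RRP15 (YPR143W) came next to CGR1 in ribosome density, with mean changes of -0.48 and -0.43 in the 4 strains.

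MDN1 (YLR106C), the ATPase that pulls Ytm1 and Rsa4 off the particle, is the longest member with 14733 coding bases. In run 2 its mRNA level was 88.7 RPKM in WT and 80.8 and 86.6 RPKM in D1/8, but 36.1 RPKM in D1/2/8, 47.9 and 44.9 RPKM in D1/2/8/11, 42.4 RPKM in D13 and 37.0 and 39.5 RPKM in D13 (KLY195). In run 1 it was 129 RPKM in WT, 174 RPKM in D2 and 132 RPKM in D1/2. The libraries of WT and D1/8 in run 2 were therefore separate from the rest. Between D1/2/8/11 and D1/8 MDN1 mRNA fell by 0.86 ± 0.06 (limma adjusted p = 3.96e-07). Its FP level was 54.2 RPKM in WT, 36.7 RPKM in D1/2/8, 45.1 and 45.7 RPKM in D1/2/8/11 and 49.2 and 52.4 RPKM in D1/8. The centred FP difference between D1/2/8/11 and D1/8 was 0.06 and did not pass the test (limma adjusted p = 0.66). Without centring its sign turned, to -0.16 (limma adjusted p = 0.258). After a correction for coding length it was 0.565 and did pass (limma adjusted p = 0.00568).

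**Figure D4:**
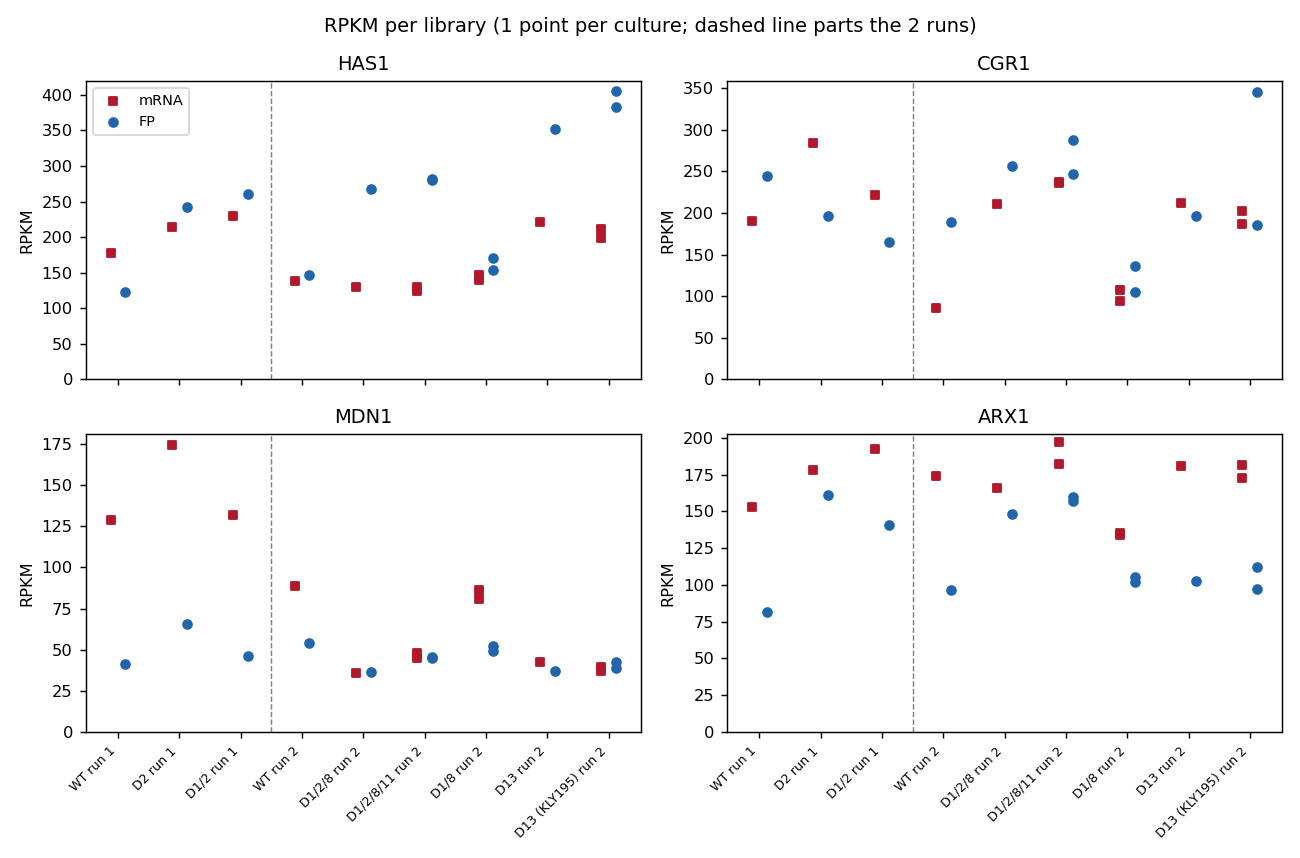
RPKM (vertical axis, from 0) of HAS1, CGR1, MDN1 and ARX1 in mRNA (red squares) and FP (blue circles) of every library, by strain and run; each point is 1 culture and the dashed line separates the runs. HAS1 FP is at 122 and 147 RPKM in WT and at 384 and 405 RPKM in D13 (KLY195), and MDN1 mRNA is lower in 4 strains of run 2 than in WT and D1/8.

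The shortest and the longest member thus had mRNA ratios of opposite sign in most strains of run 2, and the mRNA ratios of the members varied with coding length there. Across the 42 members the Spearman correlation of the mRNA ratio with coding length was -0.57 for D1/2/8, -0.57 for D1/2/8/11, -0.46 for D13 and -0.52 for D13 (KLY195), but -0.02 in D2, -0.11 in D1/2 and -0.27 in D1/8. Over all ORFs on the same chromosomes it was -0.27, -0.25, -0.17, -0.24, -0.17, -0.20 and -0.09 in the same order. In D1/2/8/11 the 15 members below 1000 coding bases had a median mRNA ratio of 0.70, the 18 members from there to below 2000 had 0.36, and the 9 of 2000 or more had 0.31. In D1/8 the medians of the same groups were -0.04, -0.22 and -0.09. In FP the members' correlation was -0.601 for D13 (KLY195), -0.395 for D13, -0.355 for D1/2/8/11 and -0.131 for D1/2/8, but 0.355 for D2, 0.329 for D1/2 and 0.366 for D1/8. Over all ORFs the FP values were -0.360, -0.312, -0.312, -0.224, 0.161, 0.172 and 0.031 in that order. These points share libraries and the WT culture of their run. After removal of the length trend within each library, a setting chosen after seeing these values, 36 of 44 members were higher in FP between D1/2/8/11 and D1/8, beside 15.2% of all ORFs higher and 22.7% lower. The MDN1 mRNA difference was then 0.08 (limma adjusted p = 0.177), and MDN1 lies at the end of the fitted range of lengths. The part of library preparation in the length trend was not tested.

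**Figure D5:**
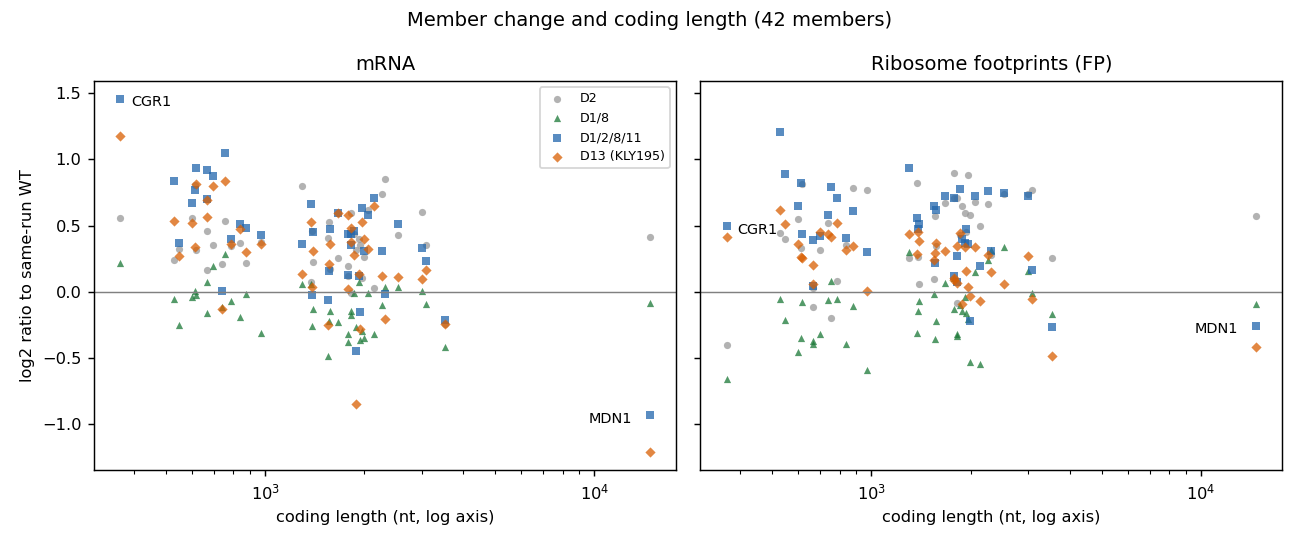
Log2 ratio to same-run WT of the 42 members on chromosomes never in extra copy (vertical axis) against coding length (horizontal axis, log scale) in mRNA (left) and FP (right), for D2 (grey circles), D1/8 (green triangles), D1/2/8/11 (blue squares) and D13 (KLY195) (orange diamonds). In mRNA the values of D1/2/8/11 and D13 (KLY195) descend from CGR1 at 363 bases to MDN1 at 14733 bases, with Spearman correlations of -0.57 and -0.52 over the 42 members, against -0.02 in D2.

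In the strains without chromosome II in extra copy, the highest mean FP ratios were those of HAS1 (0.94), ALB1 (0.43) and ERB1 (0.38), of which HAS1 and ERB1 are on chromosome XIII, in extra copy in the D13 pair. The lowest were those of MDN1 (-0.36), URB2 (-0.35) and NOC2 (YOR206W, -0.32). NOC2, a scaffold protein of the early particle, had FP ratios of -0.55 for D1/8, -0.35 for D13 and -0.07 for the reverted strain, with mRNA ratios of -0.32, 0.78 and 0.65.

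Other genes of ribosome assembly were set beside the members. For 36 further 60S factors, those on chromosomes in extra copy set aside in each strain, the median FP ratios were 0.45, 0.41, 0.43 and 0.47 in the 4 strains with an extra chromosome II, in the order D2 to D1/2/8/11, and -0.02, 0.18 and 0.22 in D1/8, D13 and the reverted strain. The 58 genes of the small-subunit processome had 0.46, 0.40, 0.36, 0.45, -0.05, 0.18 and 0.14 in the same order. In the centred FP fit 43 of 48 of them were higher in D1/2/8/11 than in D1/8, as were 22 of 25 further 60S factors. None of either list was lower, while 34.5% of all ORFs were higher and 19.8% lower. These lists were not counted without centring. The 15 genes of RNA polymerase I, which transcribes the precursor RNA, had FP medians of 0.01 for D2, 0.00 for D1/2, 0.30 for D1/2/8 and 0.49 for D1/2/8/11. In D1/8, D13 and the reverted strain their medians were -0.01, 0.15 and 0.23, the last 2 above those of D2 and D1/2. Each median rests on 12 to 15 of these genes. Of 9 regulators of ribosome biogenesis genes, the FP medians lay between -0.10 and 0.21 in the 7 strains. These lists were not tested against the members.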

How the data were processed

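The authors deposited RPKM values. Adapters had been removed with Cutadapt, Bowtie had placed reads on yeast mRNAs (SacCer3) with no mismatch allowed, reads inside coding sequences had been counted, and aneuploid libraries had been scaled by the median of their ratios to WT over genes on chromosomes not duplicated. Depth was recovered from the steps of the RPKM values times coding length, whole to within 0.05 for 92.31% to 99.14% of low values, and ranged from 1660160 to 5075209 reads per FP library in run 1 and 8477431 to 24929812 in run 2, and from 1532192 to 3477078 per mRNA library in run 1 and 22375992 to 39635236 in run 2. The least covered member of any library held 97.1 reads. Reads without molecular identifiers give counting error only, and no count test was applied. The labels only number the replicates, and the study describes them as biological replicates. The p-values measure the spread between these samples.

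Ratios used ORFs above 0 in both libraries and no pseudocount, and ribosome density ratios were shifted to a median of 0 like the others. Tests used limma 3.58.1 (lmFit and eBayes with trend, R 4.3.3) on log2(RPKM + 0.5), ORFs with a mean RPKM of at least 1, 1 group per strain, with 3 residual degrees of freedom, and fold changes are on the log2(RPKM + 0.5) scale, which understates the change of low genes. Ribosome density was tested on FP minus mRNA per culture. The script was tested on simulated data. Alternatives were other pseudocounts, filters, centrings, WT choices, left-out cultures and a replicate block. Coordinates are those of R64, the SacCer3 assembly. Members, lists and the rule for named genes (members on duplicated chromosomes, and the extremes of FP, ribosome density and WT level) were chosen with earlier results of these data known. DBP6, DBP10, HAS1, CGR1 and MDN1 were followed in detail for their rank by that rule.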

Additional observations from a re-analysis of the deposited data

How the results depend on the processing

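Of 189 counts of called members, 157 equalled the main count or stayed within 1.5 times of it. These counts add higher and lower calls, so they do not show direction, and the share of all ORFs was not weighed. The main count of D1/8 against WT was 0 in FP and in density, and 0 beside 0 was taken as equal. Of 82 medians, 63 kept their sign and stayed within the spread of cultures. Of 300 single-gene values, 269 kept their direction and their side of the limit. Alternatives on coding length, on run 2 alone and on the doubted FP library were chosen after seeing the data. Without centring, D13 (KLY195) against WT had 1 member higher and 1 lower in FP (6.36% and 18.1% of all ORFs). In ribosome density 2 members were higher and none lower in this strain (7.09% and 14% of all ORFs). D1/2/8/11 had 5 higher and 1 lower in density against D1/8 (10.6% and 19.1%), and 7 higher and none lower against WT (5.36% and 15.4%). With centring on ORFs without a hydrophobic segment (encoding no predicted signal or membrane segment), D1/2/8/11 had 18 FP calls against WT. All of them were higher (10.6% of all ORFs higher and 23.8% lower). D13 (KLY195) then had 4 FP calls against WT, 1 higher and 3 lower (5.3% and 19.7%). Its 3 density calls against WT were all higher (8.38% and 12.6%). In density D1/2/8/11 against D1/8 then had 7 calls, 6 higher and 1 lower (12% and 18.4%). After length correction D13 (KLY195) against WT had 10 higher and none lower in FP (7.63% and 17% of all ORFs). In density it had 3 higher and none lower (8.4% and 13.3%). D1/2/8/11 against D1/8 had 8 higher and 2 lower in density (10.4% and 19.3%). With WT of both runs, 3 members were higher and none lower in density in D1/2/8/11 (5.63% and 9.5% of all ORFs). D13 (KLY195) had 2 higher and none lower in density (7.23% and 7.71%). In mRNA of D1/8 none was higher and 5 were lower (12.3% and 8.79%). Run 2 alone gave 13 members in mRNA above the other 3 strains. Same-numbered cultures of D1/2/8/11 and D13 (KLY195) deviated together weakly (correlations of 0.188 in mRNA, 0.143 in FP and 0.177 in density). Those of the other pairs of strains did not (-0.049 to 0.010), so the numbers were not taken to pair the cultures. With the replicate block D13 (KLY195) had 3 higher and none lower in density (11.3% and 8.14% of all ORFs). In FP of D1/2/8/11 against D1/8, 40 were then higher and none lower (33.1% and 19.4%). Leaving out 1 culture at a time, D1/2/8/11 against D1/8 ranged from 33 to 40 in FP and 0 to 22 in density, D1/2/8/11 against WT from 22 to 37 in FP and 0 to 16 in density, D1/8 from 0 to 2 in FP, and D13 (KLY195) from 6 to 37 in FP and 0 to 7 in density. The left-out medians of the shifted ratios to WT ranged from 0.367 to 0.473 in mRNA and 0.462 to 0.493 in FP of D1/2/8/11, from -0.155 to -0.061 in FP of D1/8 and from 0.190 to 0.347 in FP of D13 (KLY195). Against the mean of both WT cultures, mRNA medians were 0.286 in D2 and -0.143 in D1/8, and FP medians 0.321 for D1/2/8, 0.316 for D1/2/8/11, -0.259 for D1/8, 0.080 for D13 and 0.132 for D13 (KLY195). With ratios shifted on ORFs without a segment, mRNA medians were 0.249 for D1/2/8, 0.314 for D1/2/8/11, 0.275 for D13 and 0.209 for D13 (KLY195), and FP medians 0.314, 0.329, 0.072 and 0.163. With no shift the FP median of D2 was 0.594, and with RPKM of at least 10 that of D1/2/8/11 was 0.381. Between D1/2/8/11 and D1/8 the sign turned without centring for SDA1 (-0.008), URB2 (-0.102) and MDN1 (-0.161) in FP and CGR1 (-0.082) in density, with the centring without segments for the same values (-0.105, -0.199, -0.258 and -0.057), after length correction for CGR1 density (-0.368) and MDN1 mRNA (0.083), and with 1 culture left out for ERB1 FP (-0.065 to 0.036) and CGR1 density (-0.129 to 0.441). The causes were not tested. The 1 WT culture per run limits all ratios to WT.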
